A study of Homo sapiens with 8 samples.

Results

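The genes described here are 10 transcriptional outputs and feedback inhibitors of ERK signalling in BRAF-mutant melanoma, chosen by symbol: ETV4, ETV5, IER2, PHLDA1, SPRY2, SPRY4, DUSP4, DUSP6, CCND1 and MYC. Of these, 9 had a row among the 4616 genes of the authors' deposited table, and SPRY2 had 0 rows under this symbol or an older one. Ribosome footprints and RNA (poly(A) RNA by the molecule labels, total RNA by the titles) were sequenced from WM902B, a human primary melanoma line that carries BRAFV600E, at passage 18. The cells had been infected with a hairpin against the long non-coding RNA TINCR (shTINCR) or with a scrambled control hairpin (shSCR), and all were given cycloheximide at 100 µg/ml for 5 min. There were 8 libraries in 4 groups of 2 biological replicates, footprints and RNA for each hairpin. The labels name 1 hairpin against TINCR, so an effect of that hairpin on other RNAs and an effect of losing TINCR cannot be told apart. TINCR itself had 0 rows, so its silencing could not be read from these values.

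The table compares shTINCR with shSCR cells gene by gene through translational efficiency (TE), which is the level of ribosome footprints on an mRNA relative to the level of that mRNA. It gives 1 log2 TE value per hairpin, the log2 change between them and a p-value, with no value per library, so the spread between replicates is unknown. Whether a gene's TE changed through its footprints, its mRNA or both is not shown.

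In the RAS-RAF-MEK-ERK pathway, active ERK phosphorylates ETS and other transcription factors and switches on a small set of genes within minutes to hours. Some of these genes encode further transcription factors (ETV4, ETV5, MYC) or cyclin D1, which carry the signal forward. Others encode Sprouty proteins and dual-specificity phosphatases, which restrain the pathway and so form its negative feedback. In melanoma with mutant BRAF the pathway is constantly active, and the levels of these transcripts are widely used as a measure of its output. Many of the mRNAs are short-lived, so their protein output depends closely on both transcription and translation.

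The RefSeq promoter table of GRCh38.p14 held 5 of the 10 genes. The 250 bases before the annotated start are shown for the 4 of them that also had a TE value, because ERK acts on these genes through transcription factors that bind near the start. Capitals mark each CGGAA or TTCCG, the same letters read on either strand. This is a stricter form of the GGAA core recognised by many ETS factors, so GGAA after a base other than C is not marked.
IER2: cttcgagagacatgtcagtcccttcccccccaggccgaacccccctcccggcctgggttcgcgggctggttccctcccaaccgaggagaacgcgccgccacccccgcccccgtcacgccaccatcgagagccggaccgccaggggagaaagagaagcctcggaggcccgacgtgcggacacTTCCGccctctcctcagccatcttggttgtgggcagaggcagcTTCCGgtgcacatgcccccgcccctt
PHLDA1: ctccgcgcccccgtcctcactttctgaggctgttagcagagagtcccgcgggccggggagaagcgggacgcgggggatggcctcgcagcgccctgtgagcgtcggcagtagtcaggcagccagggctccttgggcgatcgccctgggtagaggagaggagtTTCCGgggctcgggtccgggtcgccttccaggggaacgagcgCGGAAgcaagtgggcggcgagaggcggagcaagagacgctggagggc
SPRY4: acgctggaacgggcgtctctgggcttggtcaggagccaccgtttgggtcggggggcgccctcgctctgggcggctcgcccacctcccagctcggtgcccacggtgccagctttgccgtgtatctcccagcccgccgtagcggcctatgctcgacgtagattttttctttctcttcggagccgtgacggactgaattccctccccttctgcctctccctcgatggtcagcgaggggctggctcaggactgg
DUSP6: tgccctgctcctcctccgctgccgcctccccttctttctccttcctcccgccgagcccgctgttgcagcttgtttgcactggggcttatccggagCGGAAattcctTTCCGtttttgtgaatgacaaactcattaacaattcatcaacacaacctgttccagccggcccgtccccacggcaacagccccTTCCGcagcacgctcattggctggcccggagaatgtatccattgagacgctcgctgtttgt

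The windows lie at chr19:13150161-13150410 on the plus strand for IER2, chr12:76031777-76032026 on the minus strand for PHLDA1, chr5:142324248-142324497 on the minus strand for SPRY4 and chr12:89352502-89352751 on the minus strand for DUSP6. IER2 and PHLDA1 held 2 matches to CGGAA or TTCCG each, DUSP6 held 3 and SPRY4 held 0. At least 1 match was present in 30.3% of all 35097 promoter windows. The SPRY4 window does hold the shorter GGAA, which was not counted. The CRE core (TGACG or CGTCA) was present once in IER2 and once in SPRY4, and 21.2% of all windows held it. None of the 4 windows held an AP-1 site (TGACTCA or TGAGTCA, 4.2% of all windows) or a CArG box, the binding sequence of serum response factor (1.16% of all windows). Nor did any of the 4 annotated transcripts begin with a C followed by 4 pyrimidines, the start of the terminal oligopyrimidine (TOP) tract of growth-regulated mRNAs, which 4.07% of all windows had. G and C made up 69.6% of the IER2 window, 70.4% of PHLDA1, 65.6% of SPRY4 and 57.2% of DUSP6. The shares over all windows were not matched for this content. These matches describe letters in the annotation, and a TE value says nothing about which factor was bound.

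TE of 6 of the 9 measured ERK output genes rose in shTINCR cells in the authors' deposited table, where genes were called at an adjusted p below 0.05, and 0 fell. The 6 were ETV4, IER2, PHLDA1, SPRY4, DUSP4 and CCND1, and the authors' deposited table gave them log2 rises between 0.21 and 0.65. ETV5, DUSP6 and MYC did not pass, with log2 changes of 0.21, 0.13 and 0.11. Over all genes of the authors' deposited table, 8.23% rose and 8.17% fell by the same rule. The median log2 change of the 9 genes was 0.26, against 0.02 over all genes. All 9 changes were above 0, as were those of 52.5% of all genes. These genes were chosen with earlier results of the same comparison known, so the counts describe them and are not a test.

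Before any change is considered, most of these mRNAs were translated less efficiently than the typical gene. The median log2 TE of the 9 genes was -0.82 in shTINCR and -1.03 in shSCR cells, against medians over all genes of 0.0019 in shTINCR and 0.0078 in shSCR cells. TE is a ratio within a gene, so its length cancels only if footprints and mRNA were counted over the same region, which no source used here states. In shTINCR cells 7 of the 9 lay below the median of all genes, and in shSCR cells 8 did. The lowest log2 TE belonged to DUSP4, at -1.48 in shTINCR and -1.74 in shSCR cells in the authors' deposited table. SPRY4, PHLDA1 and CCND1 followed upwards in shTINCR cells, at -1.12, -1.03 and -0.97 in the authors' deposited table. These 3 lay within 0.15 of each other, and the table gives no spread by which neighbours in this order could be told apart. ETV5 stood at -0.82, DUSP6 at -0.41 and IER2 at -0.23 in shTINCR cells in the authors' deposited table, and MYC and ETV4 were the only members above 0, at 0.19 and 0.62. Between the lowest and the highest member TE differed 4.28-fold in shTINCR and 3.52-fold in shSCR cells. The order was not the same under both hairpins: PHLDA1 and SPRY4, IER2 and DUSP6, and ETV4 and MYC each exchanged places.

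**Figure D1:**
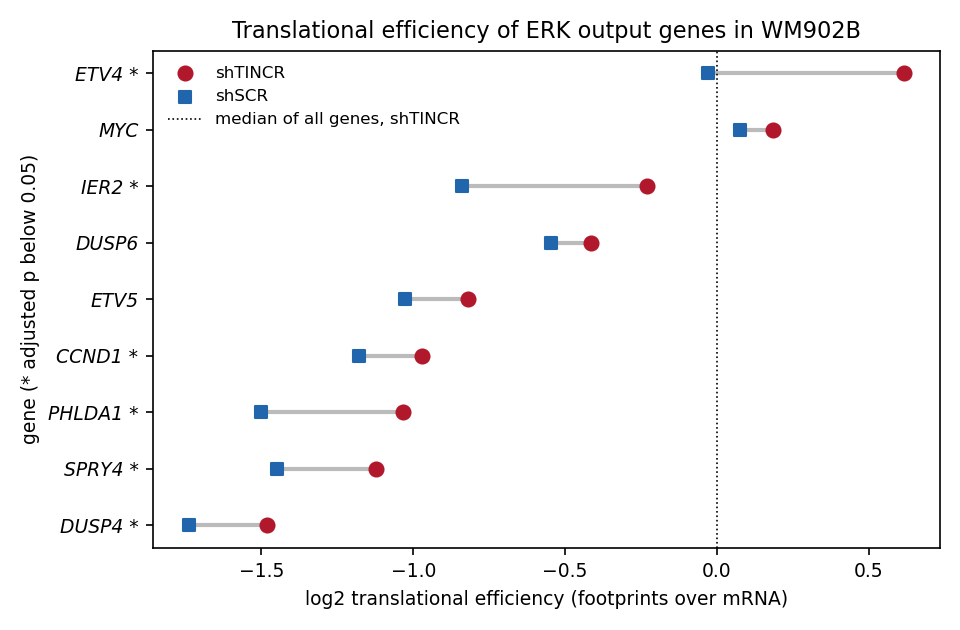
Log2 TE (x axis) of the 9 measured ERK output genes (y axis, ordered by shTINCR), with shTINCR as red circles, shSCR as blue squares and the median of all genes in shTINCR cells as a dotted line. Each circle lies right of its square, by 0.65 for ETV4 and 0.11 for MYC, and 7 of the 9 circles lie left of the dotted line.

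ETV4 and ETV5 are closely related ETS activators of the PEA3 group, both induced by ERK. ETV4 had a TE of 1.53 in shTINCR cells, against 0.980 in shSCR cells, in the authors' deposited table, where the typical gene is near 1. This was a rise of 1.56-fold (log2 change 0.65, adjusted p = 0.00078) per the authors' deposited table, and 32 of the 4616 genes had a larger rise. ETV4 stood at or above 77.3% of genes in shTINCR cells, against 48.1% in shSCR cells. ETV5 had a TE of 0.566 in shTINCR cells, against 0.491 in shSCR cells, a log2 change of 0.21 that did not pass (adjusted p = 0.275 from the authors' deposited table). ETV1, the remaining PEA3 factor and a melanoma oncogene, had a log2 TE of -1.22 in shTINCR cells, against -0.90 in shSCR cells. Its log2 change of -0.32 did not pass (adjusted p = 0.0721 from the authors' deposited table). With the first of the authors' estimates alone, ETV1 passed as a fall (adjusted p = 0.0461). The 3 PEA3 factors thus gave a rise past the threshold, a positive value and a negative value, and differences between them were not tested. Among the 5 other measured ETS factors, ETV1 included, 0 rose and 1 fell, against 8.23% and 8.17% of all genes. Their median log2 change was -0.20. The faller was GABPA, an ETS activator of mitochondrial and housekeeping genes, with a log2 change of -0.43 (adjusted p = 0.0466 from the authors' deposited table).

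In the RefSeq annotation ETV4 overlaps DHX8, an RNA helicase gene that also has a row. DHX8, named after its value was seen, had a log2 change of 0.17 (adjusted p = 0.365 from the authors' deposited table). No source used here says whether reads were counted by strand, and a part of DHX8 reads in the value of ETV4 was not tested. None of the 9 genes has a named pseudogene there. ETV5, PHLDA1 and SPRY4 overlap non-coding RNA genes and DUSP6 overlaps an annotated read-through transcript, none of which has a row of its own.

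IER2 and PHLDA1 are immediate early genes, transcribed within minutes of growth factor stimulation without new protein synthesis. IER2 encodes a nuclear protein linked to transcription and cell motility, and PHLDA1 a pleckstrin homology-like protein that dampens receptor tyrosine kinase signalling. TE of IER2 was 0.854 in shTINCR cells, against 0.558 in shSCR cells, in the authors' deposited table. It rose 1.53-fold (log2 change 0.61, adjusted p = 9.99e-05 from the authors' deposited table), with 46 genes showing a larger rise. IER2 stood at or above 39.5% of genes in shTINCR cells, against 17.7% in shSCR cells. PHLDA1 had a TE of 0.489 in shTINCR cells, against 0.353 in shSCR cells, in the authors' deposited table. Its rise of 1.38-fold was smaller (log2 change 0.47), but it had the smallest adjusted p of the 9 genes (1.09e-05 in the authors' deposited table), and 57 of all genes had a smaller unadjusted p. Its TE stood at or above that of 12.8% of genes in shTINCR cells, against 5.70% in shSCR cells, so it was among the less efficiently translated mRNAs under both hairpins.

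MYC is a growth-promoting transcription factor whose mRNA is a classical immediate early transcript. Its TE was 1.14 in shTINCR cells, against 1.05 in shSCR cells, and the log2 change of 0.11 did not pass (unadjusted p = 0.313, adjusted p = 0.527 from the authors' deposited table). It was the highest of the 9 genes in shSCR cells and had the smallest change of them, and whether its change differs from that of IER2 or PHLDA1 was not tested. Of the 4 other measured genes of the MYC network, 0 rose and 1 fell, against 8.23% and 8.17% of all genes. Their median log2 change was -0.05. AURKA, a mitotic kinase that also stabilises MYC proteins, was the faller, with a log2 change of -0.28 (adjusted p = 0.0382 from the authors' deposited table).

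The 3 measured relatives of IER2 and PHLDA1 had values above 0, as did 52.5% of all genes. Of these relatives 1 rose, against 8.23% of all genes. PHLDA3, a p53-induced inhibitor of AKT, rose by 0.45 on the log2 scale (adjusted p = 0.0288 from the authors' deposited table). PHLDA2, a growth-restraining imprinted gene, had a log2 change of 0.41 that did not pass (adjusted p = 0.101 from the authors' deposited table). IER3, an ERK-dependent survival factor, had one of 0.24 that did not pass either (adjusted p = 0.11 from the authors' deposited table). Both passed with the second of the authors' estimates alone (adjusted p = 0.00173 for PHLDA2 and 0.0405 for IER3). The baselines of the PHLDA genes were far apart, with log2 TE values in shTINCR cells of 3.81 for PHLDA2, -1.03 for PHLDA1 and -1.84 for PHLDA3 in the authors' deposited table.

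Across a wider list of immediate early genes, 18 apart from the members were measured. Of these 1 rose and 0 fell, against 8.23% and 8.17% of all genes. The median log2 change of these 18 was 0.13, against 0.02 over all genes. Values above 0 were found in 15 of them and in 52.5% of all genes. MAFF, a small MAF transcription factor, was the gene that rose (log2 change 0.47, adjusted p = 0.00948 from the authors' deposited table). Neither the zinc finger factor EGR1 (log2 change 0.21, adjusted p = 0.449) nor the AP-1 subunit FOSL1 (0.17, adjusted p = 0.519) passed in the authors' deposited table. FOSL1 stood far above the members in level, with a log2 TE of 2.30 in shTINCR and 2.13 in shSCR cells in the authors' deposited table.

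The feedback inhibitors act at different levels of the pathway. SPRY4 blocks signalling upstream, between receptors and RAF. TE of SPRY4 was 0.459 in shTINCR cells, against 0.366 in shSCR cells, a rise of 1.25-fold (log2 change 0.33, adjusted p = 0.0339 from the authors' deposited table). Of the Sprouty and RAS-regulating genes listed with it, 3 others were measured, with a median log2 change of 0.10 in the authors' deposited table. Of these 0 passed in either direction, where 8.23% of all genes rose and 8.17% fell. At an unadjusted p below 0.05 it was also 0, against 1363 of all 4616 genes. SPRY1, SPRED1 and SPRED2 had no row. DUSP4 and DUSP6 encode phosphatases that remove the activating phosphates from ERK itself, DUSP4 in the nucleus and DUSP6 in the cytoplasm. DUSP4 had a TE of 0.358 in shTINCR cells, against 0.2996 in shSCR cells, in the authors' deposited table. It rose 1.20-fold (log2 change 0.26) with an adjusted p of 0.0496 in the authors' deposited table, and 3 of all called genes had a larger p. DUSP6 had a TE of 0.750 in shTINCR cells, against 0.685 in shSCR cells, and its log2 change of 0.13 did not pass (adjusted p = 0.426 from the authors' deposited table). The difference between the changes of these 2 phosphatases was not tested. The 3 other measured dual-specificity phosphatases, DUSP3, DUSP10 and DUSP14, had log2 changes from 0.18 to 0.34. Of these 0 passed by adjusted p, against the same 8.23% and 8.17% of all genes. By an unadjusted p below 0.05 it was 1, against 1363 of all 4616 genes. DUSP1, DUSP5 and DUSP7 had no row. DUSP3, DUSP10 and DUSP14 fell outside the rule for named genes and are named after their values were seen.

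CCND1 encodes cyclin D1, which activates CDK4 and CDK6 and links ERK activity to entry into S phase. TE of CCND1 was 0.510 in shTINCR cells, against 0.441 in shSCR cells, in the authors' deposited table. It rose 1.16-fold (log2 change 0.21, adjusted p = 0.0477 from the authors' deposited table). This was the smallest rise of all 380 genes that rose, and 18 of the called genes had a larger p. ETV5 had a log2 change of the same size, 0.21, but an unadjusted p of 0.108, against 0.00764 for CCND1, in the authors' deposited table. The authors' deposited table gave the related cyclin CCND3 a value of -0.10 (adjusted p = 0.711) and the partner kinases CDK4 and CDK6 values of 0.12 and -0.03, none of which passed. Among 9 measured partners and regulators of the G1 cyclins 2 rose and 0 fell, against 8.23% and 8.17% of all genes. Their median log2 change was 0.02. Both that rose were inhibitors: CDKN2A, which encodes p16 and ARF, rose by 0.66 (adjusted p = 0.000162) and CDKN1A, which encodes p21, by 0.44 (adjusted p = 0.00318) per the authors' deposited table.

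**Figure D2:**
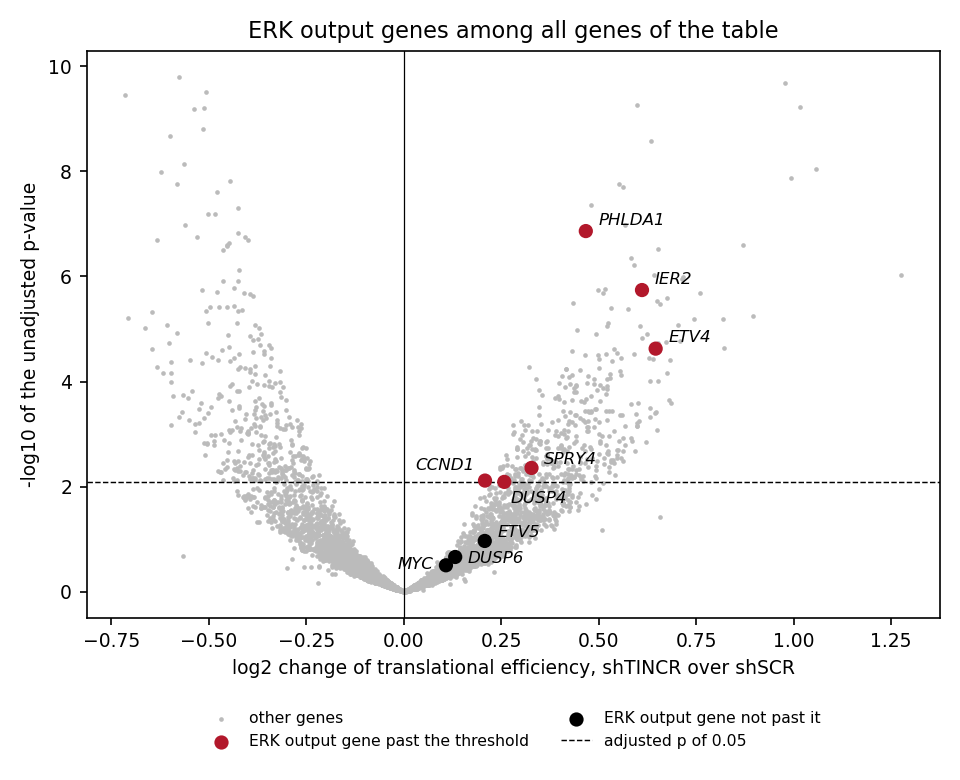
Log2 change of TE, shTINCR over shSCR (x axis), against -log10 of the unadjusted p (y axis, drawn up to 10, which leaves out 31 genes) for all genes in grey, ERK output genes past the threshold in red and the others in black; the dashed line marks an adjusted p of 0.05. PHLDA1, IER2 and ETV4 stand well above the line, SPRY4, CCND1 and DUSP4 lie on or just above it, and ETV5, DUSP6 and MYC lie below it.

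PHLDA1, IER2 and ETV4 had adjusted p-values of 1.09e-05, 9.99e-05 and 0.00078 in the authors' deposited table, and they stayed past a threshold of 0.01, at which 3.62% of all genes rose. SPRY4, CCND1 and DUSP4 lay between 0.0339 and 0.0496 in the authors' deposited table. These 3 were lost under the Benjamini-Yekutieli adjustment, which allows for any dependence between genes, with adjusted p = 0.305, 0.43 and 0.447 computed from the p-values of the authors' deposited table. By that adjustment 2.58% of all genes rose. At a threshold of 0.1 the same 6 members passed and 11.5% of all genes rose, and with a minimum log2 change of 0.3 beside the threshold of 0.05 it was 4 members and 7.54% of all genes. ETV5, DUSP6 and MYC had unadjusted p-values between 0.108 and 0.313 in the authors' deposited table. The table holds a pair of estimates per gene, of which the authors kept the one with the larger p. Either estimate alone has p-values no larger than the deposited ones, so no call could be lost with it. ETV5, DUSP6 and MYC did not pass with either, and 9.23% (first estimate) and 11.0% (second) of all genes rose. The estimates differed by at most 0.00258 in the log2 change of any of the 9.

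**Figure D3:**
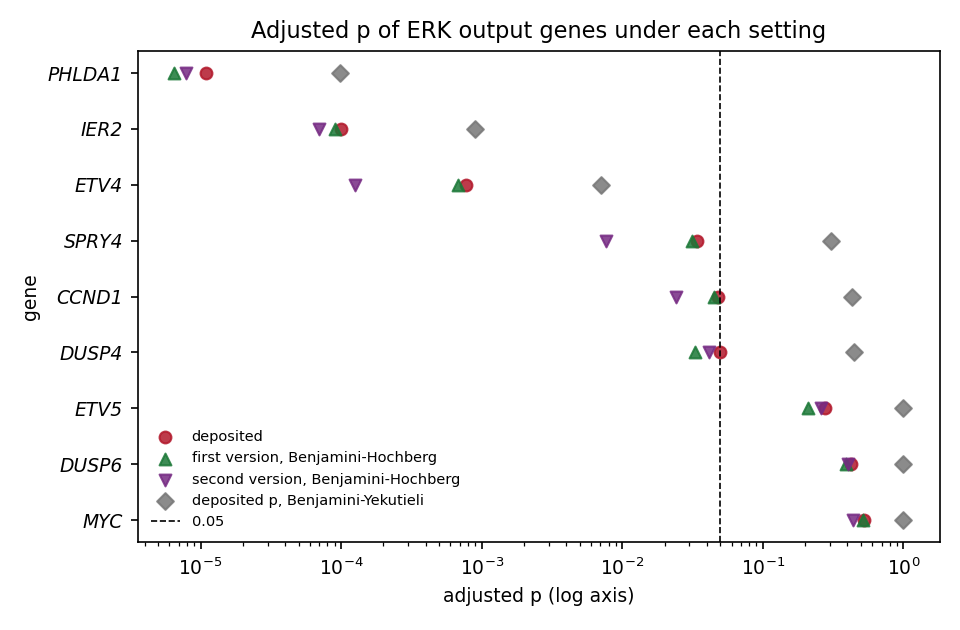
Adjusted p (x axis, log scale) of each ERK output gene (y axis) as deposited, from either of the authors' estimates with Benjamini-Hochberg adjustment, and from the deposited p with Benjamini-Yekutieli adjustment; the dashed line is 0.05. PHLDA1, IER2 and ETV4 lie left of the line under all 4 settings, and the grey diamonds of SPRY4, CCND1 and DUSP4 lie right of it.

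Many further transcripts depend on ERK in BRAF-mutant melanoma, among them genes of ribosome and nucleotide synthesis. Apart from the members, 24 genes of a list of such transcripts were measured, of which 1 rose, 2 fell and 21 did not pass. Over all genes, 8.23% rose and 8.17% fell. The median log2 change of the 24 was 0.03, and 13 of them were above 0, close to the share over all genes. MAFF was again the gene that rose. The fallers were POLR3G, a subunit of RNA polymerase III, with a log2 change of -0.71 (adjusted p = 0.000269), and SLC4A7, a bicarbonate transporter, with -0.27 (adjusted p = 0.0474), per the authors' deposited table. In the pathway upstream of these transcripts, 6 of 15 listed kinases and GTPases were measured, and 2 rose, against 8.23% of all genes. MKNK2, which encodes the ERK-activated kinase MNK2, rose by 0.90 (adjusted p = 0.000243) and RPS6KA1, which encodes the ERK-activated kinase RSK1, by 0.46 (adjusted p = 0.0167) per the authors' deposited table.

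**Figure D4:**
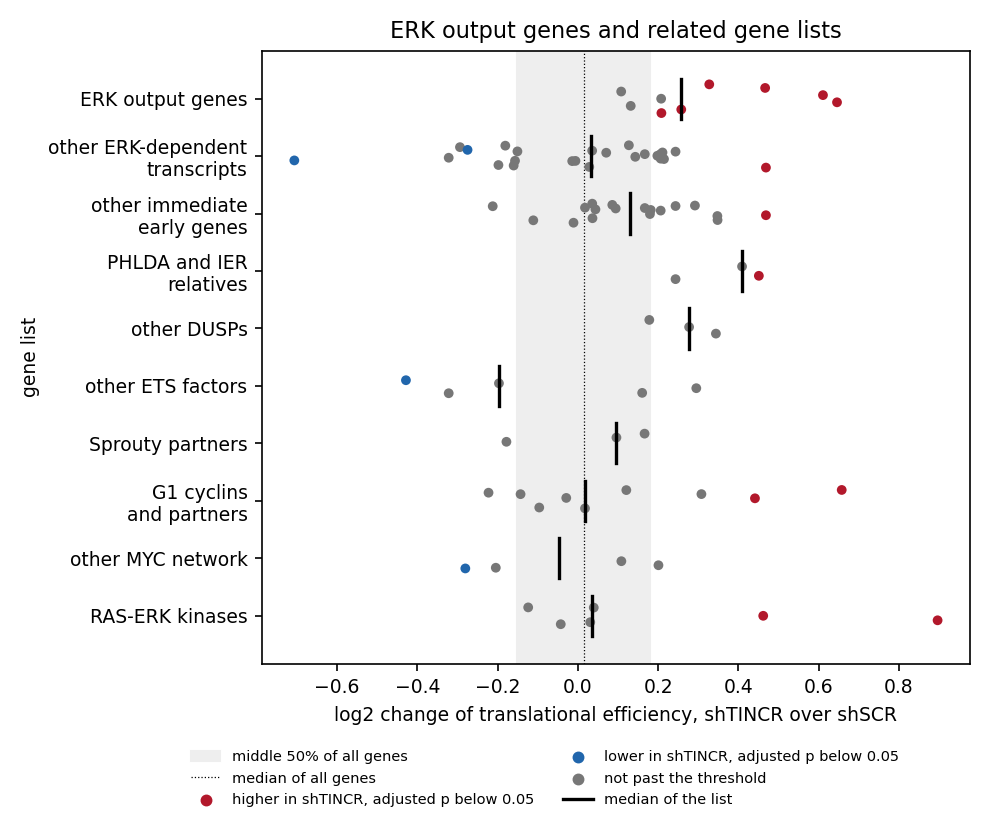
Log2 change of TE, shTINCR over shSCR (x axis), of each measured gene of the ERK output genes and 9 related lists without them (y axis); red genes rose, blue genes fell, black bars are list medians, and the grey band holds the middle of all genes (-0.15 to 0.18). The ERK output genes have a median of 0.26, and the other ERK-dependent transcripts one of 0.03.

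Because most members had a low TE, the share of genes called is also given among genes of similar TE. All genes were ranked by their mean log2 TE over both hairpins and split into 4 equal groups of 1154. In the lowest group lay 5 of the 9 members (ETV5, PHLDA1, SPRY4, DUSP4 and CCND1), of which 4 rose, and there 8.06% of genes rose and 8.41% fell. IER2 and DUSP6 lay in the next group, where 8.23% rose and 9.36% fell, and ETV4 and MYC in the group above it, where 7.11% rose and 9.79% fell. The highest group held 0 of the members, and 9.53% of its genes rose and 5.11% fell. Over all genes, 8.23% rose and 8.17% fell. The groups rest on a mean that includes the shTINCR value, and the level of each mRNA is not known. Whether a low TE bears on the rises of the members was not tested.

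The genes most like each riser in TE were taken as the 2 nearest in distance over both log2 TE values, a measure that rests on 2 conditions only. The log2 change is the difference of the same values, so a change of similar size in these neighbours follows from how they were chosen and is given as a description. Nearest to ETV4 were SUPT4H1, a transcription elongation factor subunit, with a log2 change of 0.65, and the ubiquitin ligase RNF126, with 0.54, both past the threshold in the authors' deposited table. IER2 was closest to GRK6 (0.53), a kinase of G protein-coupled receptors, and to the immunophilin FKBP8 (0.53). PHLDA1 was closest to the nuclear export receptor XPO6 (0.44) and the integrin chain ITGB5 (0.39). GRK6, FKBP8, XPO6 and ITGB5 all rose in the authors' deposited table. The neighbours of SPRY4 (JARID2 and MRGBP), DUSP4 (BECN1 and USP22) and CCND1 (PGAM5 and ZPR1) had log2 changes between 0.19 and 0.37, and 0 of these 6 passed (adjusted p between 0.109 and 0.419 in the authors' deposited table). With the first of the authors' estimates alone, JARID2 passed (adjusted p = 0.0459).

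The melanoma label was checked against melanocyte markers, of which 12 of 15 had a row, among them MITF, SOX10, PMEL, TYR and MLANA. Of 34 markers of keratinocytes, fibroblasts, immune and endothelial cells, 4 had a row, namely PERP, COL1A2, CD68 and KDR, named after their values were seen. None of these 16 markers passed the threshold in either direction in the authors' deposited table, against 16.4% of all genes. For 1 of them, the melanocyte marker S100A1, the unadjusted p there was below 0.05, as it was for 1363 of all 4616 genes. SOX10, with a log2 change of 0.39 and an adjusted p of 0.196 in that table, passed with the second of the authors' estimates alone (adjusted p = 4.98e-05). The melanocyte markers TYRP1, OCA2 and PAX3 had no row. The table holds TE and no expression level, so a row says only that a gene was kept by the authors.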

How the data were processed

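Footprint libraries came from RNase I treated, gradient-separated ribosomes and a commercial kit, per the labels' protocols, and the RNA libraries are poly(A) RNA by their molecule labels but total RNA by their titles. The submitters' processing notes name build hg19 and, without roles, HTSeq 0.5.3p9, DESeq 1.10.1, TopHat2 2.0.8, CASAVA 1.9, SAMtools 0.1.18 and Bowtie2 2.1.0. No source used here names the counted region, the filter on low values or the tool behind the TE columns. The deposited table gives log2 TE per hairpin and log2 changes in 2 versions with a final choice, per the file headers. Its p-value columns hold a p-value for each version, a final p-value and an adjusted one, per the file headers. It has no values per library, so depth and replicate spread are unknown, and no count test could be run.

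The call rule was a deposited adjusted p below 0.05. Recomputing Benjamini-Hochberg over all 4616 genes gave this adjusted p, and the adjustment was tested on simulated data. TE and folds are 2 to the power of the log2 values. The members and lists were chosen with earlier results of these data known. The text names all members, up to 4 past the threshold from each related list, a fixed set of relatives and the 2 genes nearest to each riser in TE; genes named after seeing their values are marked as such, except the marker genes. Counts of related lists leave out the members. Motifs were searched in the RefSeq promoter table. Alternatives were either version of the estimate, centring, the Benjamini-Yekutieli adjustment, thresholds of 0.01 and 0.1 and a minimum log2 change of 0.3. All steps ran in Python 3.11.15 with matplotlib 3.10.9, scipy 1.17.1, pandas 2.3.3 and numpy 2.4.6.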

Additional observations from a re-analysis of the deposited data

How the results depend on the processing

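No paired analysis was possible because the table holds no values per library, and for the same reason no replicate could be left out and no depth is known. Directions of the 9 ERK output genes were the same under all settings tried, but none of these settings could have reversed them. Thresholds and adjustments leave the change as it is. Centring subtracts 0.016 and the versions differed by at most 0.00258, while the smallest log2 change of the 9 was 0.11. The Benjamini-Yekutieli adjustment took SPRY4 (log2 change 0.33), DUSP4 (0.26) and CCND1 (0.21) out of the calls, leaving 3 of the 6 rises, and a threshold of 0.01 also left 3. Over all genes, 119 rose and 151 fell under Benjamini-Yekutieli, and 167 rose and 194 fell at 0.01, against 380 and 377. The causes are the stricter thresholds themselves. At a threshold of 0.1, with a minimum log2 change of 0.3 or with either version of the estimate, the counts of members and of all genes stayed within 1.5 times the reported ones. Either version can only add calls, since the deposited p is the larger of both. Centring on the median of all genes leaves the p-values as they are, so it bears on direction and not on the calls.

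In the related lists without the members, Benjamini-Yekutieli left 0 rises and 1 fall of ERK-dependent transcripts, 0 rises of immediate early genes, 0 falls of ETS factors, 0 falls in the MYC network, 0 rises of PHLDA and IER relatives and 1 rise of kinases. A threshold of 0.01 left 1 fall of ERK-dependent transcripts, 0 falls of ETS factors and of the MYC network, 0 rises of PHLDA and IER relatives and 1 rise of kinases. The minimum change of 0.3 left 1 fall of ERK-dependent transcripts and 0 in the MYC network. With the second version, 2 ERK-dependent transcripts, 3 immediate early genes and 3 PHLDA and IER relatives rose. With the first version 2 ETS factors fell, and at a threshold of 0.1, 2 ETS factors fell and 2 immediate early genes rose. Why the versions differ was not tested.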
